A study of Mus musculus with 12 samples.

Results

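A set of 42 genes of mitochondrial fatty acid oxidation and fatty acid uptake was followed in mouse kidney, out of 52636 genes in the deposited table. The genes were chosen by name, with no measured value in the rule but with earlier results of these data known. All 42 names were found once in the table. The levels are FPKM, fragments normalised to gene length and to a library total, so that comparisons between genes rest on the gene lengths of the deposited table. All mice were male wild-type C57BL/6 animals aged 8 weeks, and each of 4 groups had 3 RNA-seq libraries. The cisplatin+PCN group received PCN by mouth every day at 40 mg/kg and 1 injection of cisplatin into the peritoneum at 20 mg/kg. The cisplatin group received the oil vehicle and the same cisplatin injection. The PCN group received PCN and saline, and the control group received oil and saline. PCN, pregnenolone carbonitrile, is a ligand of the pregnane X receptor of rodents, which switches on genes of drug metabolism, and cisplatin is a platinum chemotherapy agent toxic to kidney tubules. Daily dosing with oil or PCN began 4 days ahead of cisplatin and went on for 3 days afterwards, and kidneys were collected on day 4 from the injection. The treatment description lists the cisplatin group once among animals given PCN and once among those given oil, and the groups are taken here from the library titles.

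Fatty acids are taken up from the blood, bound by carrier proteins in the cytosol and joined to coenzyme A by acyl-CoA synthetases. Long chains then cross into the mitochondrion as carnitine esters and are shortened in a spiral of dehydrogenation, hydration, a further dehydrogenation and thiolysis, whose electrons pass to the respiratory chain. The proximal tubule of the kidney relies on this pathway for its energy, and the nuclear receptor PPAR alpha, encoded by Ppara, is known to induce many of its genes.

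Read totals recovered from the FPKM values ran from 18914607 to 26530485 per library, and 1 FPKM corresponded to 18.7 to 27.2 reads per kilobase of gene. The library total implied by the FPKM values was 0.952 to 1.11 times the recovered reads. The labels do not say outright that each library came from a separate animal, so the spread behind each p-value may be partly technical. The kidney label was checked on 13 proximal tubule genes, all present, with summed levels of 9097, 3523 and 4211 FPKM with cisplatin+PCN, 4006, 3700.1 and 3477 FPKM with cisplatin, 31389.7, 35081 and 32504 FPKM with PCN and 34182, 29347 and 31602 FPKM in control. They fell with cisplatin in 13 of 13 cases (median log2 change -3.02), where 31.9% of all tested genes fell. Most of each sum came from Kap alone. In whole-kidney RNA, fewer cells of a type and less RNA per cell cannot be told apart. Libraries with cisplatin varied more within groups than the others, with a median SD on the log2(FPKM + 1) scale of 0.129 for cisplatin+PCN and 0.140 for cisplatin, 0.0755 for PCN and 0.0861 for control. PCN replicate 1 and control replicate 1 held more RNA of fat cell genes than the other libraries of their groups, and the values that this touches are given with the uptake genes.

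Of the 42 genes 41 passed the expression minimum of at least 1 FPKM in at least 3 of the 12 libraries. Cpt1b, the muscle form of carnitine palmitoyltransferase 1, did not, with 0.139 to 0.425 FPKM over the 12 libraries, and 78.6% of its 50-base stretches also occur in the readthrough gene Gm44502. With cisplatin alone the set split in direction, as did the genes tested as a whole. Against control, 13 genes rose, 17 fell and 11 did not pass, where limma's test with Benjamini-Hochberg adjustment over all 13540 genes tested called 63.9% of genes changed, 32% higher and 31.9% lower. The median log2 change was -0.14 over the 41 genes and 0.01 over all genes tested. All changes below are on the log2(FPKM + 1) scale, which understates the change of low genes, and are given with their SE, while mean FPKM is given with its SD over 3 libraries.

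**Figure D1:**
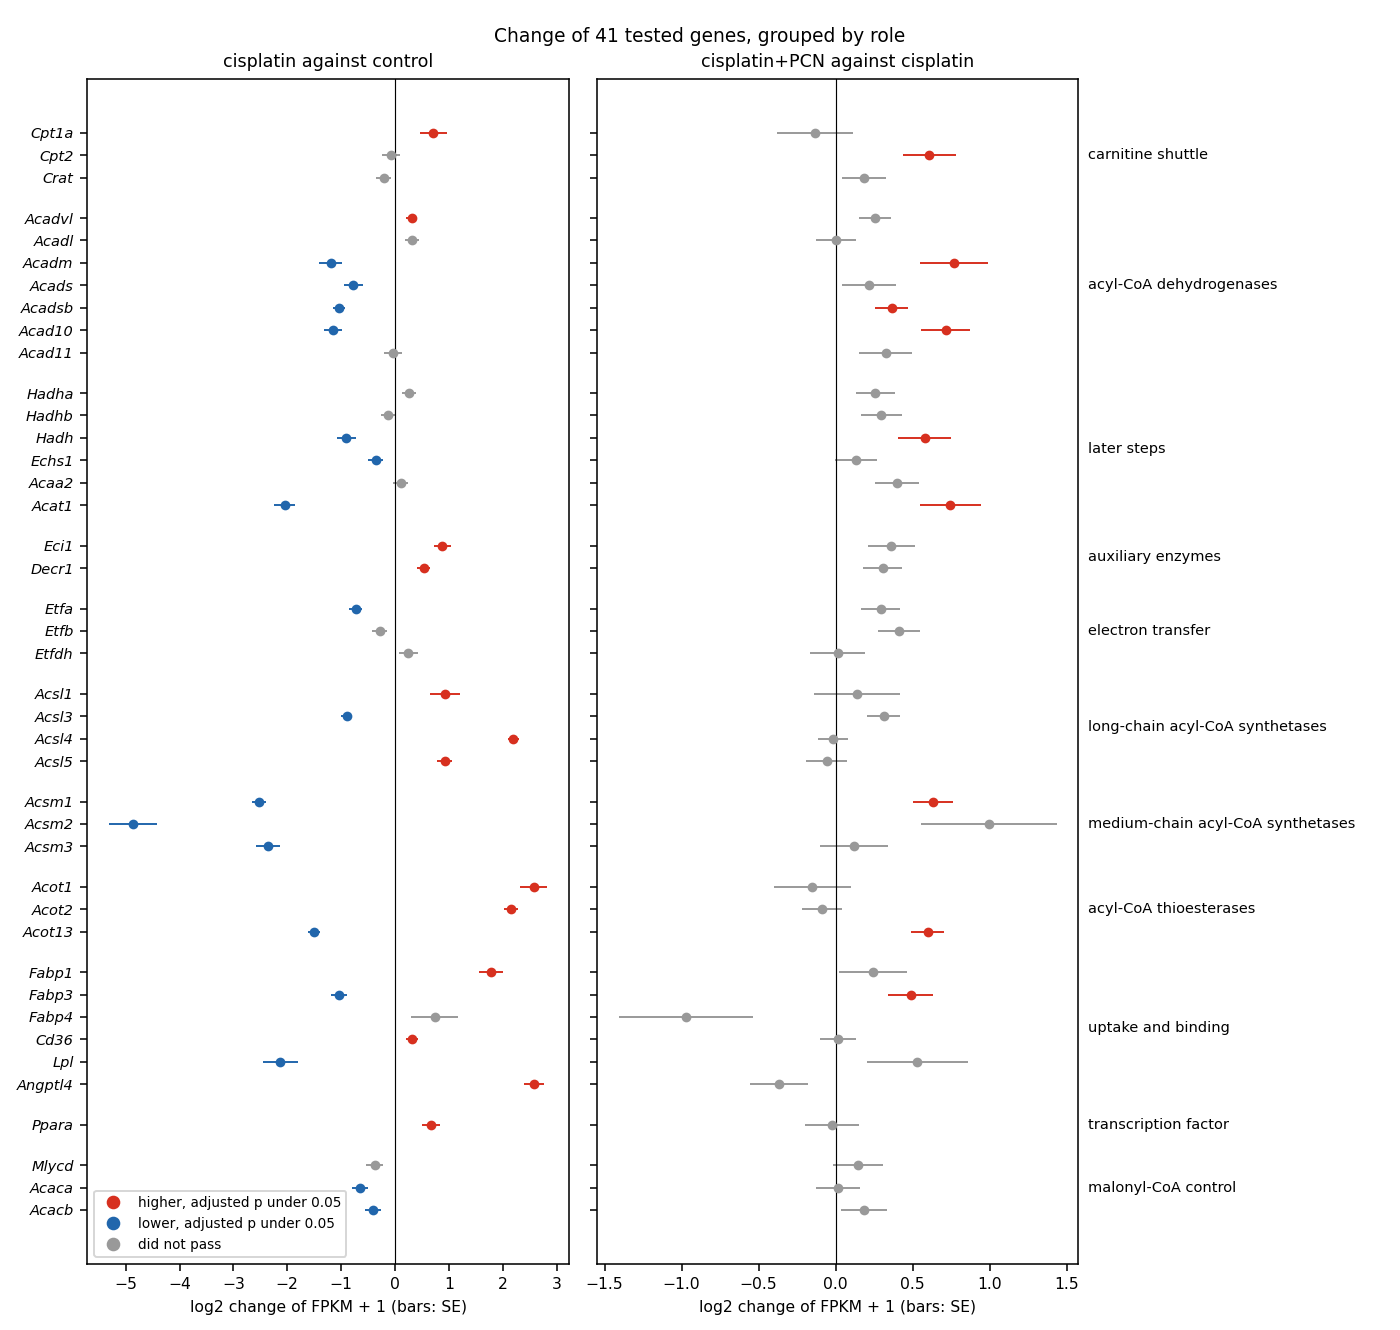
Change of each of the 41 tested genes on the log2(FPKM + 1) scale, with bars of 1 SE, for cisplatin against control on the left and cisplatin+PCN against cisplatin on the right, grouped by role. In the left panel 13 genes passed as higher and 17 as lower, with all 3 medium-chain synthetases lower, and in the right panel 9 passed as higher and 0 as lower. The shares of all tested genes were 32% higher and 31.9% lower on the left, and 7.97% and 7.61% on the right.

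Fatty acid uptake and binding genes changed in both directions with cisplatin, 3 higher, 2 lower and 1 not past the threshold. The shares of all tested genes were 32% higher and 31.9% lower. Angptl4 (ENSMUSG00000002289, chromosome 17, from 33773750 to 33781575), whose product inhibits lipoprotein lipase, stood at 106, 89.5 and 87.6 FPKM with cisplatin+PCN, 116, 98.1 and 158 FPKM with cisplatin, 16.6, 16.3 and 23.1 FPKM with PCN and 18.3, 17.0 and 23.8 FPKM in control. Every library with cisplatin lay above every library without it, and the rise with cisplatin was 2.58 ± 0.19 (log2, SE; limma adjusted p = 9.36e-07), a mean level 6.30 times that of control. Lpl (ENSMUSG00000015568, chromosome 8, from 68880491 to 68907448), the lipase itself, which releases fatty acids from circulating triglyceride, stood at 56.3, 21.01 and 22.7 FPKM with cisplatin+PCN, 18.7, 19.9 and 23.1 FPKM with cisplatin, 147, 96.5 and 92.4 FPKM with PCN and 122, 82.3 and 80.2 FPKM in control. All libraries with cisplatin lay below all control libraries, and Lpl fell by 2.13 ± 0.33 (limma adjusted p = 1.99e-04) while its inhibitor's transcript rose. Cd36, a fatty acid receptor of the cell surface, stood at 185, 149 and 152 FPKM with cisplatin+PCN, 179, 155 and 146 FPKM with cisplatin, 165, 143 and 154 FPKM with PCN and 146, 117 and 125 FPKM in control. Its rise with cisplatin was small, at 0.31 ± 0.12 (limma adjusted p = 0.0352), and the call was lost without cisplatin replicate 1 or 2 or without control replicate 2 or 3 (limma adjusted p from 0.0528 to 0.134).

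Among the 3 cytosolic fatty acid binding proteins, the liver form rose, the heart form fell and the adipocyte form did not pass. Fabp3 (ENSMUSG00000028773, chromosome 4, from 130308595 to 130315463), the heart form, stood at 102, 94.5 and 68.9 FPKM with cisplatin+PCN, 52.2, 68.8 and 66.6 FPKM with cisplatin, 124, 126 and 132 FPKM with PCN and 124, 122 and 141 FPKM in control. All cisplatin libraries lay below all control libraries, and the fall was 1.04 ± 0.14 (limma adjusted p = 9.05e-05). About 29.2% of the 50-base stretches of Fabp3 also occur in the pseudogene Fabp3-ps1, so its reads could be shared. Fabp1 (ENSMUSG00000054422, chromosome 6, from 71199827 to 71205023), the liver form, stood at 6.40, 5.89 and 6.14 FPKM with cisplatin+PCN, 7.51, 3.99 and 4.18 FPKM with cisplatin, 0.632, 0.368 and 1.25 FPKM with PCN and 0.483, 0.872 and 0.970 FPKM in control. Each library with cisplatin lay above each library without it, at low levels in all groups, and the rise with cisplatin was 1.78 ± 0.22 (limma adjusted p = 3.93e-05). Fabp1 reached the expression minimum chiefly through the libraries with cisplatin, so it could be tested only because it was higher there.

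The Fabp1 promoter is shown because it was the only promoter among those of the set that held the direct repeat at which PPAR alpha binds as a partner of the retinoid X receptor. In rodents Fabp1 is a known PPAR alpha target. The sequence runs from 5′ to 3′ on the plus strand at chr6:71199759-71199878 (GRCm38.p6, from RefSeq) and ends at the last base before the RefSeq start, with the repeat in capitals. The gene model of the deposited table starts within this stretch, after the repeat.
Fabp1 promoter: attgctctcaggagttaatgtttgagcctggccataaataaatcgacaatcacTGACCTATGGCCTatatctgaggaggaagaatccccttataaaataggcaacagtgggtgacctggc
The repeat lies 67 to 55 bases before the start and reads AGGCCATAGGTCA on the other strand. Searched on both strands as AGGNCA followed by 1 base and AGGNCA again, from 250 bases before to 50 after each start, it occurred in 125 of 32851 mouse promoters (0.381%) and in 1 of the 35 promoters found for 33 of the 42 genes. The stricter repeat of AGGTCA with 1 base between the copies occurred in 13 promoters (0.0396%), 0 of them of these genes. A match is only a description of the letters, and their absence from a window says nothing of the factor.

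Fabp4, the adipocyte form, stood at 15.9, 14.7 and 10.7 FPKM with cisplatin+PCN, 26.4, 20.2 and 39.3 FPKM with cisplatin, 35.1, 11.7 and 10.1 FPKM with PCN and 26.7, 11.5 and 13.6 FPKM in control. It did not pass against control (log2 change 0.74 ± 0.44, limma adjusted p = 0.161), and PCN replicate 1 and control replicate 1 were the highest of their groups. The sum over 9 fat cell genes, among them Adipoq and Plin1, was also highest of its group in these libraries. The summed levels were 55.0, 34.0 and 28.5 FPKM with cisplatin+PCN, 58.1, 44.4 and 64.7 FPKM with cisplatin, 207, 17.0 and 25.4 FPKM with PCN and 136, 36.8 and 40.5 FPKM in control. Of the list 8 genes were tested for cisplatin against control, and 2 rose and 1 fell. The shares over all tested genes were 32% and 31.9%. Plin4, which reached the expression minimum chiefly through the libraries with cisplatin, and Cidec rose, and Car3 fell. Lep was listed at 0 in 5 of 12 libraries. The defining marker Adipoq stood at 2.25, 1.36 and 0.715 FPKM with cisplatin+PCN, 1.84, 1.66 and 2.42 FPKM with cisplatin, 11.8, 0.332 and 0.670 FPKM with PCN and 5.81, 1.68 and 1.46 FPKM in control. Brown fat genes were likewise highest in PCN replicate 1 and control replicate 1, with 103 FPKM in PCN replicate 1 and 119 FPKM in control replicate 1 summed over 6 genes, although Ucp1 was highest in cisplatin replicate 3 at 33.1 FPKM. Without these 2 libraries together Fabp4 passed as higher with cisplatin (limma adjusted p = 0.00576) and as lower with cisplatin+PCN than with cisplatin (0.0385). The part of fat cell RNA in the levels of Fabp4, Lpl and Cd36 was otherwise not tested.

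**Figure D2:**
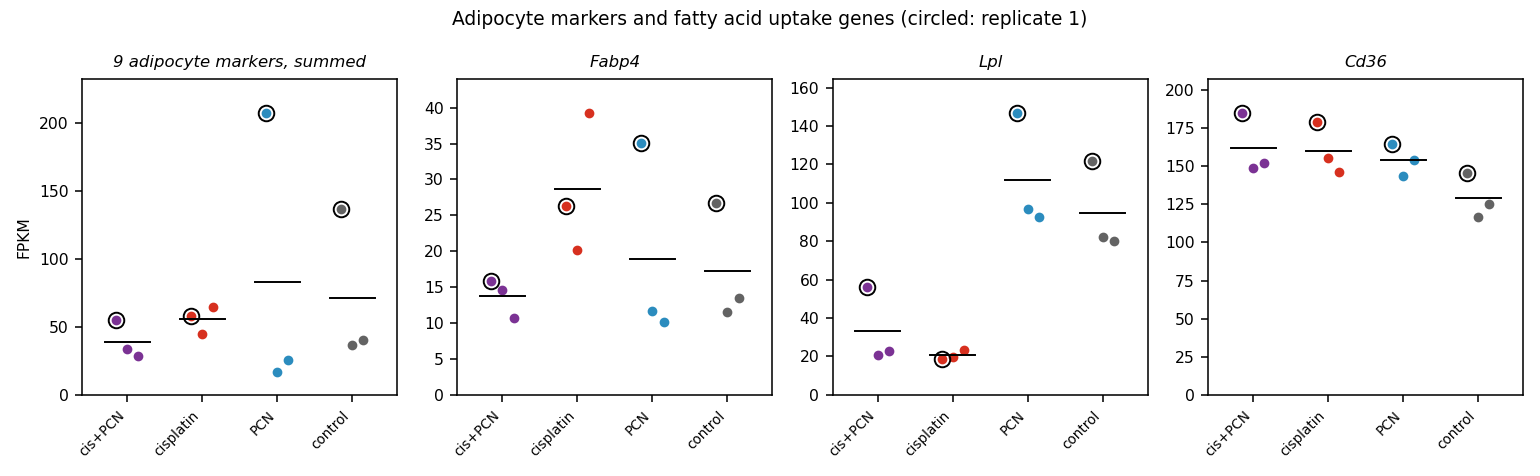
FPKM per library of 9 fat cell marker genes summed and of Fabp4, Lpl and Cd36 in the 4 groups, with lines at group means and replicate 1 of each group circled. PCN replicate 1 and control replicate 1 stand above the others of their groups in the marker sum, at 207 FPKM for PCN and 136 FPKM for control, and in Fabp4 and Lpl.

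Genes that activate fatty acids to their coenzyme A esters changed in both directions. Of 4 long-chain synthetase genes 3 rose with cisplatin and 1 fell, where 32% of all tested genes rose and 31.9% fell. All 3 medium-chain synthetase genes fell. Acsl4 (ENSMUSG00000031278, chromosome X, from 142317993 to 142390535), which prefers arachidonic acid, stood at 55.0, 53.3 and 48.0 FPKM with cisplatin+PCN, 49.6, 62.6 and 46.7 FPKM with cisplatin, 11.6, 11.7 and 11.2 FPKM with PCN and 10.8, 10.7 and 10.5 FPKM in control. Both groups with cisplatin stood apart from both without it, and the rise with cisplatin was 2.20 ± 0.10 (limma adjusted p = 4.23e-08), or 4.97 times the control mean. Acsl1, a major synthetase of oxidative tissues, rose by 0.92 ± 0.28 (limma adjusted p = 0.0136, but 0.0516 without cisplatin replicate 1 and 0.0527 without cisplatin replicate 3), and Acsl5 by 0.92 ± 0.13 (limma adjusted p = 1.23e-04). Acsl3, a synthetase of the endoplasmic reticulum and lipid droplets, stood at 3.33 ± 0.0742 FPKM with cisplatin and 7.12 ± 1.09 FPKM in control (SD, n = 3 each) and fell by 0.90 ± 0.11 (limma adjusted p = 2.79e-05).

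Acsm2 (ENSMUSG00000030945, chromosome 7, from 119554340 to 119600690), a mitochondrial medium-chain synthetase that is abundant in kidney, stood at 107, 19.9 and 39.6 FPKM with cisplatin+PCN, 29.6, 17.8 and 19.2 FPKM with cisplatin, 719, 696 and 718 FPKM with PCN and 689.8, 630.5 and 654 FPKM in control. No library with cisplatin came near the libraries without it, and the fall with cisplatin was 4.86 ± 0.44 (limma adjusted p = 4.40e-06), to 0.0337 times the control mean, the largest change among the 41 genes. Acsm1 (ENSMUSG00000033533, chromosome 7, from 119607026 to 119662515) stood at 26.3, 20.3 and 16.9 FPKM with cisplatin+PCN, 12.2, 13.7 and 13.4 FPKM with cisplatin, 82.4, 88.5 and 93.5 FPKM with PCN and 81.2, 85.0 and 74.5 FPKM in control. It fell by 2.53 ± 0.13 (limma adjusted p = 9.78e-08), with no overlap between groups with and without cisplatin. Acsm3, at 18.5 ± 2.04 FPKM with cisplatin and 99.9 ± 22.9 FPKM in control (SD, n = 3 each), fell by 2.35 ± 0.22 (limma adjusted p = 5.66e-06), and 39.7% of its exon bases overlap exons of other genes, chiefly Eri2. The 3 genes together held 3.28% of the summed FPKM of the 42 genes with cisplatin+PCN and 2.19% with cisplatin, against 25.0% with PCN and 24.2% in control. Acsm2 ranked 18th of the 42 by mean FPKM with cisplatin+PCN, 31st with cisplatin and 1st with PCN and in control. The sum over all 42 genes was 3851, 2409 and 2654 FPKM with cisplatin+PCN, 2672, 2247 and 2453 FPKM with cisplatin, 3758, 3737 and 3877 FPKM with PCN and 3633, 3414 and 3366 FPKM in control.

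Thioesterases cleave the coenzyme A ester again, and 2 of 3 rose with cisplatin, where 32% of all tested genes rose. Acot1 (ENSMUSG00000072949, chromosome 12, from 84009490 to 84018371), a cytosolic long-chain thioesterase, stood at 119, 61.6 and 71.6 FPKM with cisplatin+PCN, 109.6, 68.8 and 95.8 FPKM with cisplatin, 13.6, 20.4 and 21.7 FPKM with PCN and 13.9, 15.5 and 13.3 FPKM in control. All libraries with cisplatin were above all without it, and the rise with cisplatin was 2.57 ± 0.25 (limma adjusted p = 6.93e-06), to 6.41 times the control mean. Its mitochondrial relative Acot2 rose by 2.15 ± 0.13 (limma adjusted p = 2.70e-07). About 19.2% of the 50-base stretches of Acot1 and 27.7% of those of Acot2 occur in other genes, most of these in each other, so reads could pass between them. Acot13 (ENSMUSG00000006717, chromosome 13, from 24817948 to 24831540), a thioesterase associated with mitochondria, stood at 102, 76.5 and 84.5 FPKM with cisplatin+PCN, 59.3, 60.1 and 52.6 FPKM with cisplatin, 154, 156 and 168 FPKM with PCN and 179, 153 and 159.9 FPKM in control. Its libraries with cisplatin lay below all libraries without it, and it fell by 1.501 ± 0.11 with cisplatin (limma adjusted p = 8.25e-07).

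**Figure D3:**
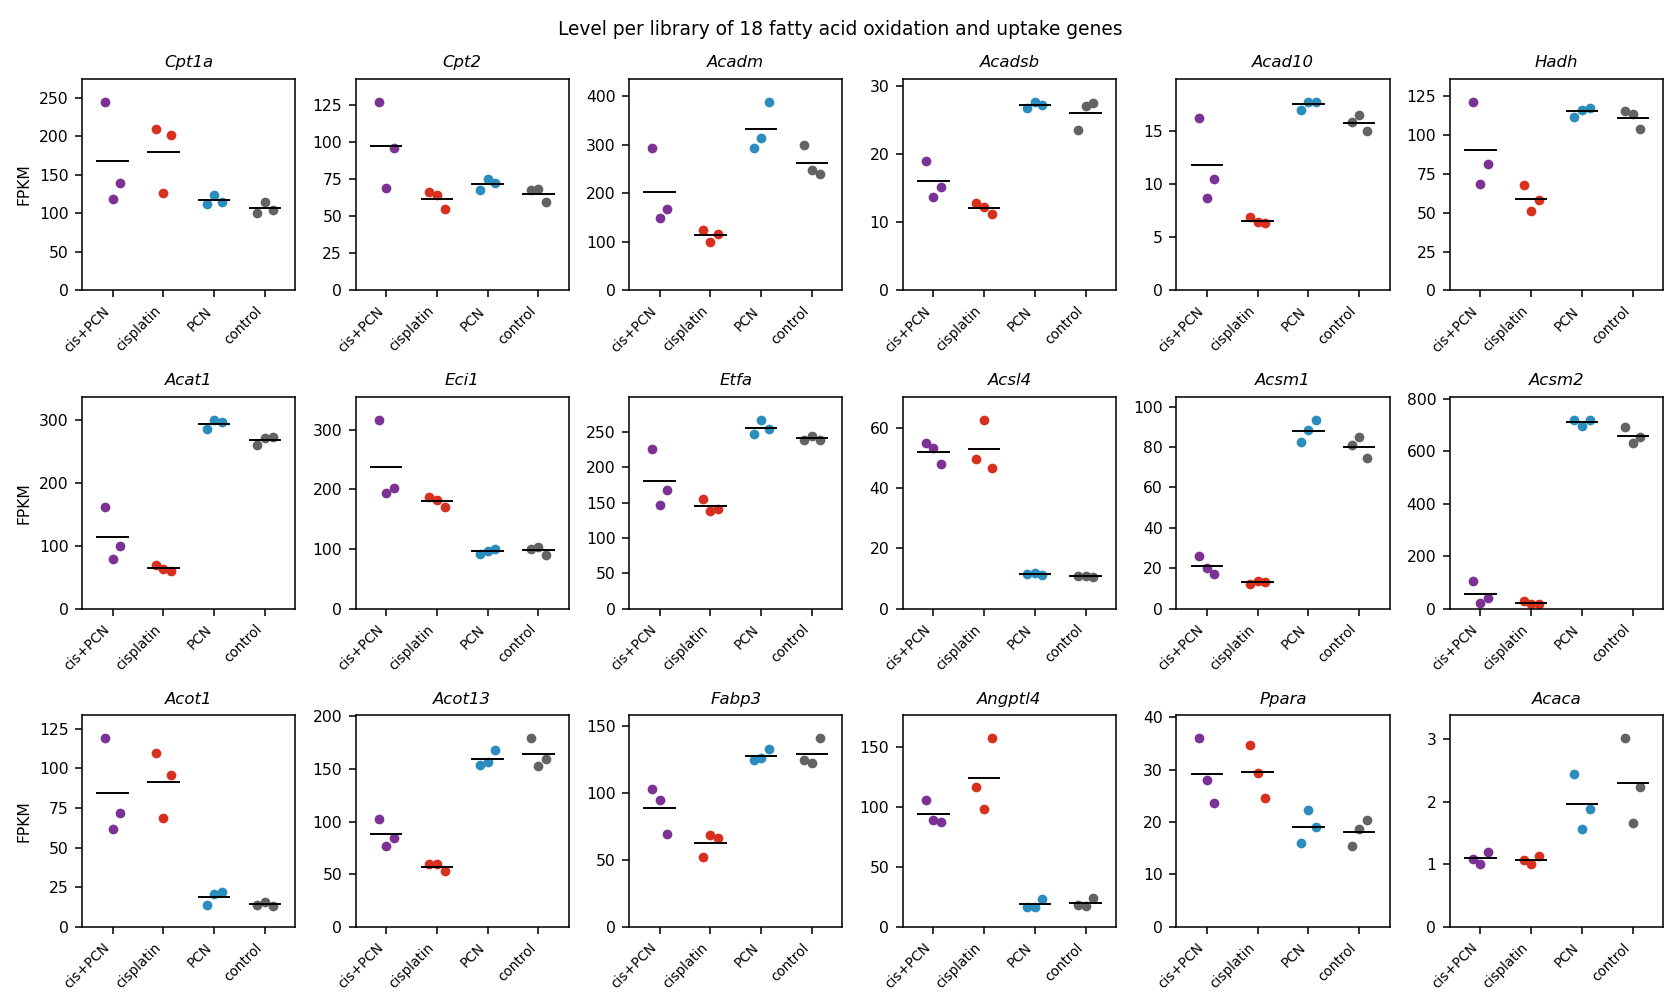
FPKM per library of 18 of the 42 genes in cisplatin+PCN (cis+PCN), cisplatin, PCN and control kidneys, with lines at group means and each axis starting at 0. Acsm2 stood at 17.8 to 107 FPKM in libraries with cisplatin and at 630.5 to 719 FPKM in those without it, whereas Acsl4, Acot1, Eci1 and Angptl4 were higher in each library with cisplatin than in each without it.

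The carnitine shuttle carries long chains into the mitochondrion. Of its 3 tested genes 1 rose with cisplatin and 2 did not pass, where 32% of all tested genes rose. Cpt1a (ENSMUSG00000024900, chromosome 19, from 3323301 to 3385732), the entry step that malonyl-CoA inhibits, stood at 245, 118 and 139 FPKM with cisplatin+PCN, 209.6, 127 and 202 FPKM with cisplatin, 113, 123 and 115 FPKM with PCN and 100.1, 115 and 104 FPKM in control. The cisplatin libraries lay above all control libraries but varied from 127 to 209.6 FPKM, and the rise was 0.71 ± 0.25 (limma adjusted p = 0.0262). This call was lost without cisplatin replicate 1 or 3 or control replicate 1 or 3 (limma adjusted p from 0.0629 to 0.0948), and without a filter on low values (0.0606). Cpt2 (ENSMUSG00000028607, chromosome 4, from 107903981 to 107923610), which reforms the coenzyme A ester inside, stood at 127, 69.2 and 96.1 FPKM with cisplatin+PCN, 66.6, 64.1 and 54.9 FPKM with cisplatin, 68.0, 74.8 and 72.5 FPKM with PCN and 67.5, 68.0 and 59.8 FPKM in control. Cisplatin and control overlapped, and the change did not pass (-0.07 ± 0.17, limma adjusted p = 0.726). Crat, a short-chain carnitine acyltransferase, did not pass either, at 24.6 ± 2.78 FPKM with cisplatin and 28.6 ± 0.523 FPKM in control (SD, n = 3 each), although it passed as lower without cisplatin+PCN replicate 1 (limma adjusted p = 0.0423).

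The acyl-CoA dehydrogenases, which open each turn of the spiral, moved in both directions. The very-long-chain enzyme rose, the long-chain enzyme did not pass, and those for medium, short and short branched chains fell. Acadvl, for very long chains, stood at 92.2 ± 5.54 FPKM with cisplatin and 74.4 ± 4.11 FPKM in control and rose by 0.31 ± 0.10 (limma adjusted p = 0.0223, but 0.0780 without cisplatin replicate 1 and 0.0814 without control replicate 3). Of its exon bases 42.9% overlap exons of other genes, chiefly Dvl2. Acadl, for long chains, stood at 219.8 ± 30.2 FPKM with cisplatin and 175 ± 8.28 FPKM in control (log2 change 0.32 ± 0.13, limma adjusted p = 0.0511), with no overlap between the groups. It passed without cisplatin+PCN replicate 1 or 2 or cisplatin replicate 2 (limma adjusted p from 0.0138 to 0.0302). Acadm (ENSMUSG00000062908, chromosome 3, from 153922357 to 153944632), for medium chains, stood at 293, 148 and 168 FPKM with cisplatin+PCN, 125, 100.1 and 116 FPKM with cisplatin, 293, 314 and 389 FPKM with PCN and 298, 248 and 240.0 FPKM in control. The highest cisplatin library was well under the lowest control library, and the fall was 1.20 ± 0.22 (limma adjusted p = 6.75e-04). Acads, for short chains, fell by 0.77 ± 0.18 (limma adjusted p = 0.00267), to 52.9 ± 8.07 FPKM with cisplatin, against 90.7 ± 6.67 FPKM in control.

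Acadsb (ENSMUSG00000030861, chromosome 7, from 131410601 to 131448944), for short branched chains from isoleucine, stood at 19.1, 13.8 and 15.2 FPKM with cisplatin+PCN, 12.8, 12.3 and 11.2 FPKM with cisplatin, 26.9, 27.7 and 27.3 FPKM with PCN and 23.6, 27.1 and 27.5 FPKM in control. All 6 libraries with cisplatin were below all 6 without it, and cisplatin lowered it by 1.04 ± 0.11 (limma adjusted p = 9.94e-06). Acad10 (ENSMUSG00000029456, chromosome 5, from 121621026 to 121660514), a less studied member of the family, stood at 16.2, 8.67 and 10.5 FPKM with cisplatin+PCN, 6.93, 6.44 and 6.34 FPKM with cisplatin, 17.1, 17.8 and 17.8 FPKM with PCN and 15.9, 16.6 and 15.1 FPKM in control. It fell by 1.15 ± 0.16 with cisplatin (limma adjusted p = 9.48e-05), and 17.1% of its 50-base stretches occur in other genes, mostly Acad12. Acad11 overlapped between cisplatin and control and did not pass (-0.04 ± 0.17, limma adjusted p = 0.863). The difference between chain lengths was not tested as such.

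In the later steps of the spiral 3 of 6 genes fell with cisplatin and 3 missed the threshold, where 31.9% of all genes fell. Acat1 (ENSMUSG00000032047, chromosome 9, from 53580522 to 53610382), a mitochondrial thiolase of ketone bodies and isoleucine, stood at 162, 78.6 and 100.4 FPKM with cisplatin+PCN, 69.8, 63.5 and 60.0 FPKM with cisplatin, 285, 301 and 297 FPKM with PCN and 259.9, 272 and 273 FPKM in control. The cisplatin libraries were the lowest and the groups did not overlap, and the fall was 2.04 ± 0.20 (limma adjusted p = 6.37e-06), to 0.240 times the control mean. Hadh (ENSMUSG00000027984, chromosome 3, from 131233419 to 131272101), the dehydrogenase for medium and short hydroxyacyl chains, stood at 122, 68.8 and 81.7 FPKM with cisplatin+PCN, 67.8, 51.1 and 58.3 FPKM with cisplatin, 112, 116 and 118 FPKM with PCN and 116, 114 and 104 FPKM in control. It fell by 0.91 ± 0.17 (limma adjusted p = 8.69e-04), with each cisplatin library under each control library. Echs1, the short-chain hydratase, fell by 0.36 ± 0.14 (limma adjusted p = 0.0400), a call lost in 8 of the 12 fits with 1 library left out, all but those without a cisplatin+PCN library or cisplatin replicate 1 (limma adjusted p from 0.0523 to 0.150). Acaa2, the mitochondrial thiolase for longer chains, stood at 272, 178 and 200.5 FPKM with cisplatin+PCN, 188, 144 and 157 FPKM with cisplatin, 139.9, 141 and 137 FPKM with PCN and 159.6, 147 and 144 FPKM in control. Cisplatin and control overlapped for Acaa2 (0.11 ± 0.14, limma adjusted p = 0.530), while cisplatin+PCN lay above both PCN and control.

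Hadha and Hadhb encode the subunits of the trifunctional protein, which carries out the last 3 steps for long chains. The genes lie head to head on chromosome 5, and the region between their RefSeq starts is shown because 1 stretch of DNA borders both. It covers 250 of the 272 bases between the starts, at chr5:30155003-30155252 (GRCm38.p6, from RefSeq), 5′ to 3′ on the plus strand, with the Hadha start to its left at 30154980 and the Hadhb start to its right at 30155253.
Hadha-Hadhb region: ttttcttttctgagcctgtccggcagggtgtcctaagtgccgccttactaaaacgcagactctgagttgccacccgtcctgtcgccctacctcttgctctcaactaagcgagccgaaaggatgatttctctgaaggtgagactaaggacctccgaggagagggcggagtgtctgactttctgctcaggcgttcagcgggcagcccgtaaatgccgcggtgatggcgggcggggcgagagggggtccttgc
It holds neither form of the direct repeat. Hadha stood at 47.1, 30.5 and 34.6 FPKM with cisplatin+PCN, 31.4, 28.9 and 31.7 FPKM with cisplatin, 26.0, 23.9 and 25.6 FPKM with PCN and 26.5, 26.2 and 23.5 FPKM in control. Hadhb stood at 46.8, 29.9 and 32.8 FPKM with cisplatin+PCN, 29.1, 27.2 and 30.7 FPKM with cisplatin, 33.8, 30.4 and 30.2 FPKM with PCN and 32.6, 32.2 and 31.0 FPKM in control. Hadha stood above Hadhb in each library with cisplatin and below it in each library without cisplatin, and cisplatin+PCN replicate 1 was the highest for both. The order of the 2 genes within a library rests on the gene lengths used, 8730 bases for Hadha and 6595 for Hadhb. Against control, neither passed with cisplatin (0.26 ± 0.13 for Hadha, limma adjusted p = 0.0983, and -0.14 ± 0.13 for Hadhb, limma adjusted p = 0.394), but Hadha did without cisplatin+PCN replicate 1 (limma adjusted p = 0.00993) or 2 (0.0498). With cisplatin+PCN Hadha was higher than control by 0.52 ± 0.13 (limma adjusted p = 0.00700) and Hadhb differed by 0.16 ± 0.13 (limma adjusted p = 0.348). The difference between the 2 genes was not tested, and 19.7% of the 50-base stretches of Hadhb occur in other genes, mostly Gm13910.

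Both auxiliary enzymes that prepare unsaturated chains for the spiral rose with cisplatin, where 32% of all tested genes rose. Eci1 (ENSMUSG00000024132, chromosome 17, from 24426683 to 24439316), which moves double bonds, stood at 317, 194 and 202 FPKM with cisplatin+PCN, 188, 182 and 170.4 FPKM with cisplatin, 90.9, 96.7 and 99.6 FPKM with PCN and 99.8, 104 and 89.4 FPKM in control. Each library with cisplatin was above each library without it, and the rise with cisplatin was 0.88 ± 0.15 (limma adjusted p = 5.21e-04). Decr1, which reduces dienoyl-CoA, stood at 96.7 ± 7.05 FPKM with cisplatin and 66.7 ± 6.46 FPKM in control (SD, n = 3 each) and rose by 0.53 ± 0.13 (limma adjusted p = 0.00349). By mean FPKM Eci1 ranked 1st of the 42 genes with cisplatin+PCN and 2nd with cisplatin, against 14th with PCN and 13th in control. These ranks rest on its deposited gene length of 1091 bases, where its exons in GENCODE M21 cover 2127 bases, and a longer length would lower them.

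Of the 3 genes that pass electrons from the dehydrogenases to the respiratory chain 1 fell, where 31.9% of all tested genes fell. Etfa (ENSMUSG00000032314, chromosome 9, from 55454508 to 55512243), the alpha subunit of the electron transfer flavoprotein, stood at 226, 147 and 168 FPKM with cisplatin+PCN, 155, 138 and 142 FPKM with cisplatin, 247, 268 and 254 FPKM with PCN and 239, 245 and 239.5 FPKM in control. Libraries with cisplatin lay under all those without it, and cisplatin lowered it by 0.73 ± 0.13 (limma adjusted p = 4.63e-04). Etfb, the beta subunit, stood at 29.9 ± 1.30 FPKM with cisplatin and 36.7 ± 0.572 FPKM in control and did not pass (-0.29 ± 0.14, limma adjusted p = 0.0844, but 0.00344 without cisplatin+PCN replicate 1 and 0.0300 without replicate 2), and 58.2% of its exon bases overlap exons of other genes, chiefly Gm45233. Etfdh, which hands the electrons to ubiquinone, did not pass (0.24 ± 0.18, limma adjusted p = 0.254).

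Of 4 regulation genes 1 rose with cisplatin, 2 fell and 1 did not pass, where 32% of all tested genes rose and 31.9% fell. Ppara (ENSMUSG00000022383, chromosome 15, from 85734983 to 85802819) stood at 36.0, 28.0 and 23.7 FPKM with cisplatin+PCN, 34.8, 29.4 and 24.5 FPKM with cisplatin, 16.0, 22.3 and 19.1 FPKM with PCN and 15.5, 18.6 and 20.3 FPKM in control. Every library with cisplatin exceeded every library without it, and the rise with cisplatin was 0.67 ± 0.18 (limma adjusted p = 0.00630), a mean of 1.63 times control. Acaca (ENSMUSG00000020532, chromosome 11, from 84129672 to 84401651), the cytosolic acetyl-CoA carboxylase that makes malonyl-CoA, stood at 1.08, 0.996 and 1.20 FPKM with cisplatin+PCN, 1.07, 1.004 and 1.14 FPKM with cisplatin, 2.44, 1.57 and 1.89 FPKM with PCN and 3.02, 1.65 and 2.23 FPKM in control. It was low in all groups and lower in each cisplatin library than in each control library, with a fall of 0.65 ± 0.14 (limma adjusted p = 0.00234), and 30.4% of its 50-base stretches occur in other genes, mostly Gm5182. Acacb, the carboxylase of the mitochondrial surface, fell by 0.41 ± 0.15 (limma adjusted p = 0.0309), a call lost without cisplatin replicate 1 or 2 or any 1 control library (limma adjusted p from 0.0532 to 0.0987). Mlycd, which breaks malonyl-CoA down, did not pass (-0.38 ± 0.16, limma adjusted p = 0.0611), but did without cisplatin+PCN replicate 1 or 2 or cisplatin replicate 1 (limma adjusted p from 0.0129 to 0.0447).

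Other genes of the same pathways were followed from 3 lists, also written with earlier results of these data known. Of 34 further genes of fatty acid and related acyl-CoA oxidation 33 were found by the listed name and 31 were tested. Of these 7 rose with cisplatin and 19 fell (median log2 change -0.70, against 0.01 over all genes tested), where 32% of all tested genes rose and 31.9% fell. The largest falls were in Acsm5 (-3.04), a further medium-chain synthetase, in Oxct1 (-2.72) and Bdh1 (-1.95), which use ketone bodies, and in the thioesterase gene Acot11 (-1.54). The largest rises were in Acsf2 (1.80), Cpt1c (1.27), the fatty acid transporter gene Slc27a1 (1.04) and Eci2 (0.98), an isomerase related to Eci1. Cpt1c reached the expression minimum only through the libraries with cisplatin, so it could be tested only because it was higher there. Fabp5 reached that minimum chiefly through the libraries without cisplatin, at 2.03 to 2.70 FPKM against 0.613 to 1.11 FPKM with cisplatin.

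Of 22 genes known as PPAR alpha targets 21 were found by the listed name and 18 tested. Of these 14 rose and 2 fell with cisplatin (median log2 change 1.504), where 32% of all tested genes rose and 31.9% fell. Pdk4, whose kinase inhibits pyruvate dehydrogenase, rose by 5.53 ± 0.43, the lipid droplet coat gene Plin2 by 4.49 ± 0.11 and the fatty acid hydroxylase gene Cyp4a14 by 3.35 ± 0.49 (SE). Cyp4a12a (-1.98) and Acot4 (-0.45) fell. Slc25a20, Acot3 and Acot4 belong to both lists. Slc25a20, the carnitine carrier of the inner membrane, stood at 36.9, 24.8 and 27.4 FPKM with cisplatin+PCN, 27.8, 25.8 and 27.2 FPKM with cisplatin, 13.6, 14.99 and 14.7 FPKM with PCN and 13.1, 14.5 and 13.4 FPKM in control. It rose by 0.93 ± 0.12 (limma adjusted p = 5.01e-05), with the groups with cisplatin apart from those without it. Of 10 genes of PPARs and their coactivators 1 rose, Nrip1 (0.54), and 3 fell, Esrra (-1.68), Ppargc1a (-0.93) and Ppargc1b (-0.24). Esrra, an orphan receptor that acts with Ppargc1a on mitochondrial genes, stood at 38.3, 39.0 and 46.3 FPKM with cisplatin+PCN, 25.2, 34.4 and 22.9 FPKM with cisplatin, 86.9, 81.8 and 84.5 FPKM with PCN and 89.0, 88.8 and 88.7 FPKM in control, with no overlap between libraries with and without cisplatin.

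PCN without cisplatin changed none of the 41 genes by limma's test. The count was 0 at an adjusted p under 0.05 (0 also by limma-voom on recovered reads), where 0% of all 13540 genes passed. At an unadjusted p under 0.05 there were 2 of the 41 genes and 438 of all 13540. Acsm3 had the lowest p, at 159.8, 127 and 161 FPKM with PCN and 126, 82.0 and 92.1 FPKM in control. The PCN libraries were all above the control libraries, though the lowest of them was close to the highest control library, and the difference was 0.59 ± 0.22 (limma unadjusted p = 0.0226, adjusted p = 1). Cd36 was the other gene with a low unadjusted p (0.0475), with a difference of 0.26 ± 0.12 and overlapping groups. Over the 41 genes the differences ran from -0.14 to 0.59 with a median of 0.08, and 28 were positive. The groups did not overlap for 11 genes that were higher and 1 that was lower with PCN, where 6.12% of all tested genes were apart as higher and 7.18% as lower.

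With cisplatin and PCN together, 9 of the 41 genes were higher than with cisplatin alone, 0 were lower in limma's test and 32 missed the threshold, where 15.6% of all tested genes passed, 7.97% as higher and 7.61% as lower. The median log2 difference was 0.26, and 33 of 41 differences were positive. The groups did not overlap for 13 genes that were higher and 1 that was lower with cisplatin+PCN, where 14.8% of all tested genes were apart as higher and 14.6% as lower. This comparison shares the cisplatin libraries with that of cisplatin against control, so the levels are given side by side. In mean FPKM as a percentage of control, Acadm stood at 77.5% with cisplatin+PCN and 43.4% with cisplatin, and Hadh at 81.8% with cisplatin+PCN and 53.2% with cisplatin. Acad10 stood at 74.6% with cisplatin+PCN and 41.5% with cisplatin, and Fabp3 at 68.6% with cisplatin+PCN and 48.4% with cisplatin. These 4 genes lay below control in both groups. So did Acadsb, at 61.4% with cisplatin+PCN and 46.5% with cisplatin, and Acot13, at 53.5% with cisplatin+PCN and 34.9% with cisplatin. Acat1 stood at 42.4% with cisplatin+PCN and 24.0% with cisplatin, and Acsm1 at 26.4% with cisplatin+PCN and 16.3% with cisplatin. Cpt2 alone of the 9 was above control with cisplatin+PCN, at 149.9%, and stood at 95.1% with cisplatin.

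Acot13 and Acsm1 had the clearest differences between cisplatin+PCN and cisplatin, at 0.60 ± 0.11 (limma adjusted p = 0.00959) and 0.63 ± 0.13 (limma adjusted p = 0.0142). Acad10 followed at 0.72 ± 0.16 (limma adjusted p = 0.0184) and Acat1 at 0.75 ± 0.20 (limma adjusted p = 0.0304). The other 5 were close to the threshold. Their differences were 0.77 ± 0.22 for Acadm, 0.58 ± 0.17 for Hadh, 0.61 ± 0.17 for Cpt2, 0.49 ± 0.14 for Fabp3 and 0.36 ± 0.11 for Acadsb, with limma adjusted p from 0.0399 to 0.0456. Of the 13 genes that rose with cisplatin 0 passed here. Among them the differences were -0.01 ± 0.10 for Acsl4, -0.15 ± 0.25 for Acot1, -0.09 ± 0.13 for Acot2, -0.37 ± 0.19 for Angptl4 and -0.02 ± 0.18 for Ppara. Eci1 and Decr1 were higher by 0.36 and 0.31, with no overlap between the groups. With quantile normalization Eci1 passed (limma adjusted p = 0.0489). Acsm2, the gene that fell most, was 0.99 ± 0.44 higher, but its groups overlapped and it did not pass (limma adjusted p = 0.145). Without cisplatin+PCN replicate 2 it was 1.55 higher and passed (limma adjusted p = 0.0129).

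The count of 9 depended on single libraries and on the estimate of spread that all 4 groups shared in the fit. The groups not compared here had the lower median SD, 0.0755 for PCN and 0.0861 for control. In the groups compared it was 0.129 for cisplatin+PCN and 0.140 for cisplatin. The count was 4 without cisplatin+PCN replicate 1 or 3 and 16 without replicate 2. Leaving out cisplatin replicate 1 gave 3, and leaving out cisplatin replicate 3 gave 2. Over all 13540 genes, 1175 passed without cisplatin+PCN replicate 1, 2539 without replicate 2 and 596 without replicate 3. Without cisplatin replicate 1 or 3 these were 805 and 580. The count for the set was 4 without any 1 PCN library, 5 without control replicate 2 and 4 without control replicate 3. In those fits 1480 to 1566 of all 13540 genes passed. With only the 6 libraries compared in the fit, 0 of the 41 genes and 1 of all 13540 passed. The calls for Acot13 and Acsm1 were lost only in that last fit (limma adjusted p = 0.117 and 0.126), of 23 alternatives, and that for Acad10 also without cisplatin replicate 3 (0.0650). The calls for the other 6 genes were lost in 3 to 11 of the 12 fits with 1 library left out. Whether the cisplatin effect differed with PCN was tested by the interaction, where 0 of 41 genes passed by limma's test (0 also by limma-voom), against 0.111% of all genes. At an unadjusted p under 0.05 there were 7 of the 41 genes and 2617 of all 13540. The lowest adjusted p was that of Acot13 (0.64 ± 0.15, limma adjusted p = 0.102).

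Cisplatin+PCN replicate 1 stood apart from the other libraries with cisplatin. It was the highest of its 3 libraries for 38 of the 41 genes, where the same library was highest for 45.2% of all tested genes, and replicate 2 was the lowest for 33 of the 41, where it was lowest for 40.1% of all tested genes. Relative to the mean of control, the median log2 level over the 41 genes was 0.52, -0.19 and 0.04 in the cisplatin+PCN libraries, -0.05, -0.23 and -0.18 in the cisplatin libraries, 0.06, 0.09 and 0.08 in the PCN libraries and 0.03, 0.02 and -0.04 in the control libraries. The proximal tubule sum was also highest in cisplatin+PCN replicate 1, at 9097 FPKM, against 3523 and 4211 FPKM in the other 2 libraries of its group. Kap alone held 7707, 2937 and 3239 FPKM of these sums. The mean log2(FPKM + 1) over the 13 genes, which weighs them alike, was 6.861 in replicate 1 against 5.534 and 6.293. The total implied by the FPKM values was 0.952 times the recovered reads in replicate 1, against 1.11 and 1.07 in the others. A smaller total gives higher FPKM for all genes of a library, and its part here was not tested. Of the 13 proximal tubule genes 9 were higher with cisplatin+PCN than with cisplatin (median log2 difference 1.03), where 7.97% of all tested genes were higher. With only the 6 libraries compared in the fit 1 of all 13540 genes passed. The part of the proximal tubule genes in the levels of the fatty acid genes was not tested.

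**Figure D4:**
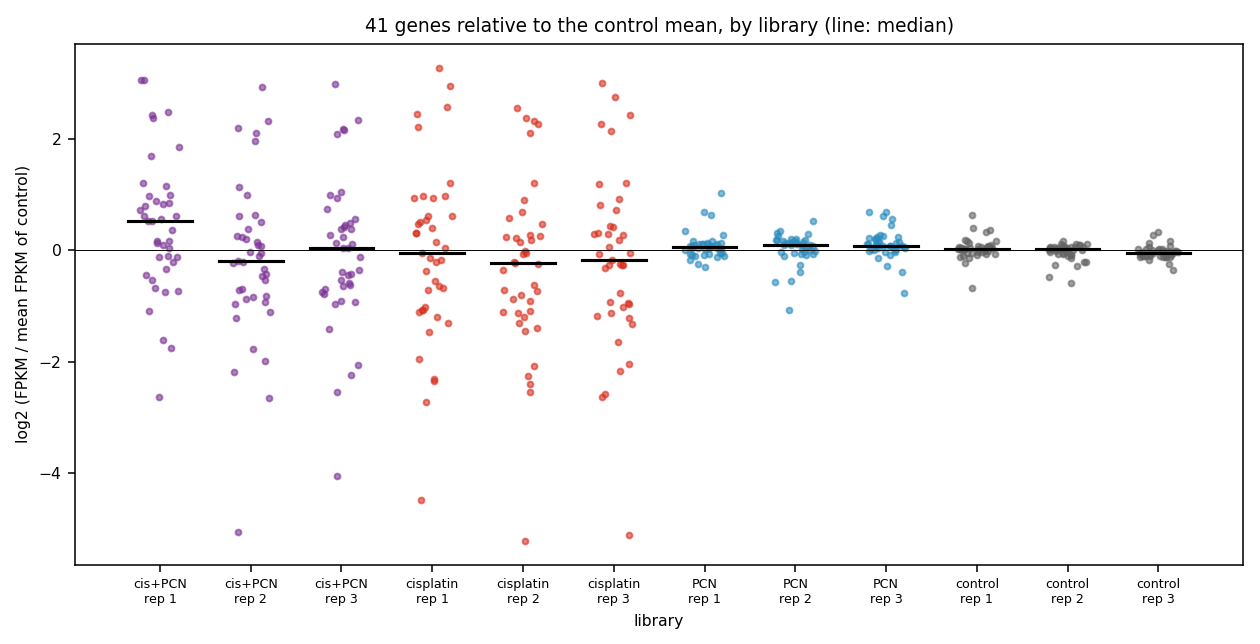
Level of each of the 41 tested genes in each of the 12 libraries as log2 of FPKM over the control mean, with a line at the median. The median was 0.52 in cisplatin+PCN (cis+PCN) replicate 1 and between -0.23 and 0.09 in the other 11 libraries, and the spread between genes was wider in the libraries with cisplatin.

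Against control, cisplatin+PCN left 15 genes higher and 13 lower, where limma's test called 46.6% of all tested genes, 23% higher and 23.6% lower. Acot1 (2.42 ± 0.25), Angptl4 (2.21 ± 0.19), Acsl4 (2.18 ± 0.10), Acot2 (2.06 ± 0.13) and Fabp1 (2.02 ± 0.22) had the largest rises, and Acsm2 (-3.87 ± 0.44), Acsm3 (-2.24 ± 0.22) and Acsm1 (-1.89 ± 0.13) the largest falls. As said above, Fabp1 could be tested only because it was higher in the libraries with cisplatin. The comparisons of cisplatin+PCN and of cisplatin share the control libraries. Against control, cisplatin+PCN did not pass for Acadm (-0.43 ± 0.22), Hadh (-0.33 ± 0.17), Echs1 (-0.23 ± 0.14) or Acacb (-0.23 ± 0.15), nor for Cpt1a (0.58 ± 0.25, limma adjusted p = 0.0778). Without cisplatin+PCN replicate 1, Acadm (-0.72, limma adjusted p = 0.00222), Hadh (-0.56, 0.00274) and Echs1 (-0.39, 0.0149) passed as lower. Cpt1a passed as higher without cisplatin+PCN replicate 2 (0.79, limma adjusted p = 0.0280) or cisplatin replicate 2 (0.0472). Hadha, Acaa2 (0.50 ± 0.14) and Cpt2 (0.54 ± 0.17) passed as higher, and Acad10 (-0.44 ± 0.16) as lower, a call lost in 11 of the 12 fits with 1 library left out, all but that without cisplatin+PCN replicate 1 (limma adjusted p from 0.0529 to 0.161). For Cpt2 the call was lost without cisplatin+PCN replicate 1 or 3 or control replicate 1 or 3 (limma adjusted p from 0.0504 to 0.0849). In PCN-treated kidneys, cisplatin+PCN against PCN gave 13 genes higher and 14 lower, where 46.9% of all genes passed, 23.5% higher and 23.4% lower. Acsl4 was higher by 2.09 ± 0.10 and Acsm2 lower by 3.98 ± 0.44 there.

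Among the further oxidation genes 8 of 31 were higher with cisplatin+PCN than with cisplatin and 0 were lower by limma's test, with Acsm5 at 1.20 ± 0.28, Oxct1 at 0.71 ± 0.18 and Acot11 at 0.79 ± 0.08. Over all tested genes 7.97% were higher and 7.61% lower. Among the 18 PPAR alpha targets 0 were higher and 2 were lower, Plin2 and Hilpda, a lipid droplet gene. Plin2 stood at 258, 256 and 262 FPKM with cisplatin+PCN, 713, 502 and 573 FPKM with cisplatin, 29.0, 26.6 and 28.3 FPKM with PCN and 25.6, 27.6 and 23.1 FPKM in control. Its cisplatin+PCN libraries lay below all cisplatin libraries and above all libraries without cisplatin, and the difference between cisplatin+PCN and cisplatin was -1.18 ± 0.11 (limma adjusted p = 7.18e-04). Hilpda differed by -1.28 ± 0.23 (limma adjusted p = 0.00897). Of the coactivator genes Ppargc1a was higher by 0.44 ± 0.09 (limma adjusted p = 0.0132) and Esrra by 0.58 ± 0.13 (limma adjusted p = 0.0169). These calls too rest on the spread shared by all 4 groups. With only the 6 libraries compared in the fit 1 of all 13540 genes passed. Of the calls in this paragraph at most 1 can have held there.

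Markers of other cell types were set beside these results. Of 5 tested macrophage genes of 8 listed, 2 rose and 1 fell with cisplatin, and the summed levels were 46.3, 79.8 and 81.3 FPKM with cisplatin+PCN, 71.2, 90.1 and 70.8 FPKM with cisplatin, 43.4, 50.6 and 46.8 FPKM with PCN and 47.6, 59.5 and 46.7 FPKM in control. The macrophage sum was lowest of its group in cisplatin+PCN replicate 1, the library with the highest fatty acid oxidation levels. Endothelial genes, whose cells hold Cd36 and bind Lpl, had summed levels from 137 to 170.5 FPKM over the 12 libraries, with 2 of 10 higher and 4 lower with cisplatin. Skeletal muscle genes summed to 0.677 to 1.53 FPKM, with Myh4 listed at 0 in 11 of 12 libraries. Liver genes summed to 40.9 to 53.4 FPKM with cisplatin+PCN, 39.5 to 55.4 FPKM with cisplatin, 87.2 to 116 FPKM with PCN and 88.4 to 102 FPKM in control, most of it Ttr and Serpina1a, while Alb stood at 0.423 to 7.88 FPKM. Of 7 genes of the thick ascending limb and distal tubule 6 fell with cisplatin, and 3 were higher with cisplatin+PCN than with cisplatin. Among the 7, Pvalb reached the expression minimum only through the libraries without cisplatin, so it could be tested only because it was higher there. For all these lists, 32% of all tested genes rose and 31.9% fell with cisplatin, and 7.97% were higher with cisplatin+PCN than with cisplatin. When only the 6 libraries of the last comparison were in the fit, 1 of all 13540 genes passed. The part of these cell types in the fatty acid gene levels was not tested.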

How the data were processed

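RNA of mouse kidney was sequenced in 12 libraries, 3 in each of 4 groups taken from the library titles. The authors deposited 1 table of FPKM values per gene and library with no counts. The submitters' processing notes name HISAT2 2.0.5, featureCounts 1.5.0-p3, DESeq2 1.16.1 and edgeR 3.18.1 without roles, and the build mm8. Whether counting used strand is not stated by any source used. Gene coordinates are those of the deposited table, and all 42 gene IDs occur in GENCODE M21, 38 with the same coordinates. Sequences were taken from RefSeq on GRCm38.p6.

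Whole reads were recovered from the FPKM steps, with 100% of values whole within 0.001, and gave 18914607 to 26530485 reads per library. Genes with at least 1 FPKM in at least 3 libraries were tested on log2(FPKM + 1) with limma 3.58.1 in R 4.3.3 (intensity trend, 1 fit of 4 group means), two-sided, at a Benjamini-Hochberg adjusted p under 0.05 over all 13540 genes. Tables were made with Python 3.11.15, pandas 2.3.3 and numpy 2.4.6, and the fit was tested on simulated data. The alternatives, 23 in all, were other pseudocounts, filters, scalings, library weights, limma-voom run on whole reads, a block for replicate number and fits with libraries left out. By rule, values by library are given for the gene of each role with the largest cisplatin change and for genes called between cisplatin+PCN and cisplatin, and up to 4 genes per direction of each other pathway list are named, some genes of these lists not being reported here. The other genes given by library, and Slc25a20, were chosen after their values were seen. Depth limits the precision of genes under about 1 FPKM. The gene set and all lists were chosen with earlier results of these data known. Replicate libraries differed by more than sampling noise, so each counted as 1.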

Additional observations from a re-analysis of the deposited data

Results flagged for a closer look

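The effect of cisplatin differed with PCN for 2 of the other pathway genes, by limma's test of the interaction over all 13540 genes. Acot11, a thioesterase gene, stood at 4.46, 3.77 and 4.00 FPKM with cisplatin+PCN, 1.76, 2.19 and 1.89 FPKM with cisplatin, 6.77, 6.64 and 6.87 FPKM with PCN and 7.02, 7.96 and 7.68 FPKM in control. Cisplatin lowered it in both settings, by 0.61 against PCN where PCN was given and by 1.54 against control where it was not, and the difference between these effects was 0.93 ± 0.11 (log2, SE; limma adjusted p = 0.00909). Plin2, which coats lipid droplets, rose with cisplatin by 3.17 against PCN where PCN was given and by 4.49 against control where it was not. The difference between these effects was -1.32 ± 0.16 (limma adjusted p = 0.00909). Of all 13540 genes 15 passed this test, and 0 of them were among the 41 oxidation and uptake genes. Without control replicate 1 and PCN replicate 1 together 0 of 13540 genes passed, so the calls for Acot11 and Plin2 were both lost there. With 1 library left out at a time, the count over all genes ran from 9 without cisplatin+PCN replicate 3 to 1066 without cisplatin replicate 2.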

How the results depend on the processing

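Leaving out 1 library at a time gave 25 to 35 of the 41 genes for cisplatin against control, 23 to 30 for cisplatin+PCN against control, 24 to 29 for cisplatin+PCN against PCN, 0 for PCN against control, 2 to 16 for cisplatin+PCN against cisplatin and 0 to 1 for the interaction, where the gene was Acot13, without cisplatin+PCN replicate 2 or cisplatin replicate 2. The same fits called 7784 to 8894 of all 13540 genes for cisplatin against control and 5233 to 6760 for cisplatin+PCN against control. For cisplatin+PCN they called 5276 to 6793 against PCN and 580 to 3390 against cisplatin. For cisplatin+PCN against cisplatin, where 9 passed, the count was 3 without a filter on low values, 0 with only the libraries compared in the fit, 19 with array weights (12 higher and 7 lower) and 4 without control replicate 1 and PCN replicate 1 together. In the same order, 1008 of all 31636, 1 of all 13540, 6862 of all 13540 and 1116 of all 13540 genes passed. With array weights 11 of the 41 genes passed the interaction, where 4315 of all 13540 genes did. Those weights ran from 0.229 to 20.1, with cisplatin+PCN replicate 3 the highest and the weight estimate stopped before it settled. They turned Etfdh to -0.28 between cisplatin+PCN and cisplatin (limma adjusted p = 0.0333). The cause was not tested. The counts for the other 4 comparisons stayed within 1.5 times under every alternative run, other scalings and pseudocounts included. Deviations from group means had a median r of -0.0302 over 18 same-number pairs (-0.281 to 0.366). Over 36 different-number pairs it was 0.0272 (-0.401 to 0.328). Values over 0.1 came from 4 pairs of each kind, so whether the replicate numbers pair the libraries is not settled. With a replicate block 32 genes passed between cisplatin and control and 7 between cisplatin+PCN and cisplatin. Of all 13540 genes 8455 and 1675 passed in these fits. Depth limits genes under 1 FPKM, Cpt1b among them.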
